A study of Mus musculus with 6 samples.

Results

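The 10 genes described here encode the core of antigen presentation by the major histocompatibility complex (MHC): *Cd74*, *H2-Aa*, *H2-Ab1*, *H2-Eb1*, *H2-DMa*, *H2-DMb1* and *Ciita* for class II, and *H2-K1*, *H2-D1* and *B2m* for class I. They were taken by symbol from a table of read counts that lists 37384 genes, and all 10 were found and passed the filter on low counts, which kept 15674 genes. The RNA came from adipocytes floated out of collagenase-digested inguinal subcutaneous white adipose tissue of male mice at postnatal day 7, and each library pooled 4 mice. L1L2-FF mice (Lats1f/fLats2f/f, 3 libraries) carry floxed *Lats1* and *Lats2* without Cre, and their L1L2-AKO littermates (Lats1f/fLats2f/f AdipoqCre, 3 libraries) carry in addition Cre recombinase driven by the *Adipoq* promoter, which is active in mature fat cells. Lats1 and Lats2 are the kinases of the Hippo pathway that restrain the coactivators YAP and TAZ. The floated fraction was not sorted, so leukocytes or vessel cells that floated with the adipocytes also gave RNA.

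Class I molecules sit on nearly all nucleated cells. A polymorphic heavy chain, here H2-K1 or H2-D1, pairs with the invariant light chain beta-2 microglobulin (B2m) and presents peptides made in the cytosol to CD8 T cells. Class II molecules are found mainly on macrophages, dendritic cells and B cells. Their alpha and beta chains are guided to endosomes by the invariant chain Cd74, exchange its remnant for a peptide with the help of H2-DM, and present that peptide to CD4 T cells. Ciita is the coactivator that switches the class II genes on. In fat, class II genes are best known from adipose tissue macrophages, while adipocytes have also been described to express them in obesity.

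In the libraries labelled L1L2-AKO the class II genes and the class I genes went in opposite directions. Of the 7 class II genes, 4 rose (*Cd74*, *H2-Ab1*, *H2-Eb1* and *Ciita*), against 9.28% of all tested genes that rose. Of the 3 class I genes, 2 fell (*H2-K1* and *H2-D1*), against 7.18% of all tested genes that fell. The other 4 genes (*H2-Aa*, *H2-DMa*, *H2-DMb1* and *B2m*) did not pass the threshold, an adjusted p of 0.05 in edgeR's quasi-likelihood test over all tested genes. In each of the 7 class II genes the lowest L1L2-AKO library lay above the highest L1L2-FF library, which held for 18.0% of all tested genes, and in each of the 3 class I genes the highest L1L2-AKO library lay below the lowest L1L2-FF library, which held for 18.4%. The median log2 fold change was 1.44 over the class II genes, -0.91 over the class I genes and -0.02 over all tested genes. In bulk RNA, fewer cells of a type and less RNA per cell cannot be told apart.

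The genotype labels were checked on the targeted genes. The log2 fold change of *Lats1* was -1.04 (adjusted p = 0.00131), whereas that of *Lats2* was 0.64 (adjusted p = 0.0278), so the latter went against the label. *Lats1* passed in all 6 fits without a library and *Lats2* in 2 of them. A count per gene cannot show whether its floxed exons are missing, and every direction below is one between libraries as labelled. Total counts ranged from 30548473 to 32107917. The defining adipocyte genes were among the most abundant of the marker lists, with *Lpl* at 11740 ± 2945 CPM and *Fabp4* at 8159 ± 1201 CPM in L1L2-FF (SD, n = 3).

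Stretches of class II and class I promoters that hold letters of known elements are shown here so that the 2 classes can be compared in sequence. Some of these letters, such as the Y box given below, lie in windows of both classes. Reference promoter windows (RefSeq, GRCm38.p6, 250 bases before to 50 after the start site) were at hand for 7 of the 10 genes: *H2-Aa*, *H2-Eb1*, *H2-DMa*, *H2-DMb1*, *H2-K1*, *H2-D1* and *B2m*. The class II stretches, 5′ to 3′ on the gene's strand, carry in capitals the letters TGATTGG, a Y box bound by NF-Y, and AGNAACNG, used as the core of the X box bound by the RFX complex:
H2-Aa (chr17:34287855-34287929, minus strand): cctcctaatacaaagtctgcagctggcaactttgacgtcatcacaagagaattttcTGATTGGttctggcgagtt
H2-Eb1 (chr17:34305750-34305824, plus strand): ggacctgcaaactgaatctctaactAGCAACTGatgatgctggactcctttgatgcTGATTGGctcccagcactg
H2-DMb1 (chr17:34153096-34153125, plus strand): AGTAACTGatgatgctaggctgattcactc

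In *H2-Eb1* the X box letters began 92 bases and the Y box letters 61 bases before the start site, with 31 bases between their first letters. In *H2-DMb1* the distance was 32 bases, the Y box letters lying just outside the stretch shown. *H2-Aa* held the Y box letters 50 bases before its start, and the AGNAACNG letters were not in its window. A search for fixed letters misses variants of an element, so this does not show that *H2-Aa* lacks an X box. On either strand the Y box letters were in 5 of the 7 genes' windows (*H2-Aa*, *H2-Eb1*, *H2-DMb1*, *H2-K1* and *H2-D1*) and in 7.82% of all 32851 promoter windows, and the X box letters were in 2 of the 7 and in 17.4% of all windows. The short CCAAT, whose reverse complement ends the Y box letters, was in 37.4% of all windows.

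The class I heavy chain promoters carry in capitals GGGATTCCC, a kappaB element bound by NF-kappaB, and TTTCACTTC, an element of the kind bound by interferon regulatory factors, whose letters were chosen after these sequences were seen. The *B2m* stretch carries in capitals a match to TTTCNNTTT, an interferon-stimulated response element, on the opposite strand:
H2-K1 (chr17:34000417-34000491, minus strand): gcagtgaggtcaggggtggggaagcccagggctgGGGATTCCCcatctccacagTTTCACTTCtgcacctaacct
H2-D1 (chr17:35262924-35262952, plus strand): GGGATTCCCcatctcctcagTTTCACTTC
B2m (chr2:122147495-122147569, plus strand): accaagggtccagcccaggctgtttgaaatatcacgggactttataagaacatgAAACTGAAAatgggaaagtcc

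From the first letter of the kappaB element to the last of the interferon element, *H2-K1* and *H2-D1* were identical at 28 of 29 bases, and the first letters of both elements stood 20 bases apart in each. GGGATTCCC was in 0.353% and TTTCACTTC in 0.505% of all promoter windows. TTTCNNTTT was in the windows of *B2m* and *H2-DMa* and in 10.6% of all. The *H2-DMa* match lay within a long run of T letters. Neither GGAATG, the letters of a TEAD site through which YAP and TAZ act on genes, nor TTCNNNGAA, a gamma-activated (GAS) element, was in any of the 7 genes' windows, against 14.7% and 8.3% of all windows. The stretches of *H2-D1* and *H2-DMb1* lie downstream of the first base of their gene in GENCODE M21, under an annotated exon, although upstream of the RefSeq start site. A match of letters is a description and does not show that a factor binds there.

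*Cd74* was the most abundant class II transcript. Its level was 15.3, 30.1 and 12.0 CPM in L1L2-FF replicates 1 to 3 and 43.1, 58.4 and 58.3 CPM in L1L2-AKO replicates 1 to 3. All L1L2-AKO libraries were above all L1L2-FF libraries, and L1L2-FF replicate 2 was the highest of its genotype. *Cd74* rose 2.78-fold (log2 fold change 1.48, standard error (SE) 0.321, adjusted p = 0.0181).

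The chains of the class II molecules showed a like order of libraries. *H2-Ab1*, the beta chain of the A molecule (chromosome 17, 34257689 to 34269419, mm10), was at 5.26, 10.7 and 3.90 CPM in L1L2-FF and at 13.6, 20.2 and 21.0 CPM in L1L2-AKO. Again L1L2-FF replicate 2 was highest and L1L2-AKO replicate 1 lowest within their genotypes. *H2-Ab1* rose 2.75-fold (log2 fold change 1.46, SE 0.363, adjusted p = 0.0302). *H2-Aa*, its alpha chain partner (chromosome 17, 34282744 to 34287823), was at 5.90, 12.9 and 3.22 CPM in L1L2-FF and at 13.8, 22.8 and 23.4 CPM in L1L2-AKO. The highest L1L2-FF library came close to the lowest L1L2-AKO library, and the log2 fold change of *H2-Aa*, 1.44 (SE 0.455), did not pass (adjusted p = 0.0666). *H2-Eb1*, the beta chain of the E molecule (chromosome 17, 34305867 to 34316674), was at 3.35, 8.13 and 3.12 CPM in L1L2-FF and at 8.74, 15.4 and 14.9 CPM in L1L2-AKO. *H2-Eb1* rose 2.67-fold (log2 fold change 1.42, SE 0.398, adjusted p = 0.0467), a call that was lost when the counts were scaled by library size alone (0.0576) or by upper-quartile factors (0.0553). *H2-Ea*, which encodes the alpha chain of the E molecule and is silent in mice of the C57BL/6 haplotype, had 2 counts in L1L2-AKO replicate 2 and 0 in each other library. It is no member of the set and was looked up after the other values were seen.

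*Ciita*, the coactivator of class II transcription (chromosome 16, 10480059 to 10528418), had the largest log2 fold change of the 10 genes at the lowest level. Its counts were 7, 22 and 4 in L1L2-FF and 29, 65 and 68 in L1L2-AKO, or 0.223, 0.680 and 0.129 CPM against 0.874, 2.06 and 2.37 CPM. The order of the libraries was that of *H2-Ab1*, with L1L2-FF replicate 2 the highest of the controls and close to L1L2-AKO replicate 1. *Ciita* rose 5.05-fold (log2 fold change 2.34, SE 0.632, adjusted p = 0.041), and its counts of 4 and 7 in L1L2-FF leave a wide counting error.

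The genes of H2-DM, the peptide exchanger of the endosome, had smaller log2 fold changes. *H2-DMa* (chromosome 17, 34119541 to 34139101) was at 4.05, 4.14 and 3.96 CPM in L1L2-FF and at 5.61, 5.74 and 5.30 CPM in L1L2-AKO. Unlike the class II chains it did not stand out in L1L2-FF replicate 2, and its log2 fold change of 0.45 (SE 0.172) did not pass (adjusted p = 0.115). The gene overlaps *Brd2* in the annotation, with which it shares 8.43% of its 50-base stretches. *H2-DMb1* (chromosome 17, 34153072 to 34160230) was at 1.66, 3.58 and 2.09 CPM in L1L2-FF and at 4.01, 4.47 and 6.11 CPM in L1L2-AKO. Its log2 fold change was 0.99 (SE 0.328, adjusted p = 0.0777). It shares 22.7% of its 50-base stretches with its near copy *H2-DMb2*, so the division of reads between these genes is uncertain.

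The class I genes were at far higher levels and went the other way. *H2-K1* (chromosome 17, 33996017 to 34000347) was at 593, 635 and 534 CPM in L1L2-FF and at 281, 309.9 and 341 CPM in L1L2-AKO. The lowest L1L2-FF library was well above the highest L1L2-AKO library, and *H2-K1* fell by 0.92 on the log2 scale (SE 0.14, adjusted p = 0.00433), which made it 1.89-fold higher in L1L2-FF. *H2-D1* (chromosome 17, 35262730 to 35267499) was at 910.1, 983 and 809 CPM in L1L2-FF and at 444, 490.3 and 505 CPM in L1L2-AKO. The genotypes were again well apart, and *H2-D1* fell by 0.91 (SE 0.144, adjusted p = 0.00497). *H2-K1* shares 9.63% and *H2-D1* 12.8% of their 50-base stretches with other genes of the annotation, *H2-Q10* and *H2-Q1* being the largest partners. *B2m*, the light chain (chromosome 2, 122147686 to 122153083), was at 1369, 1081 and 1147 CPM in L1L2-FF and at 829, 759 and 924 CPM in L1L2-AKO. All L1L2-AKO libraries were below all L1L2-FF libraries, but the log2 fold change of *B2m*, -0.52 (SE 0.163), did not pass (adjusted p = 0.0654); it passed when the counts were scaled by library size alone (0.0384) or by upper-quartile factors (0.044).

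**Figure D1:**
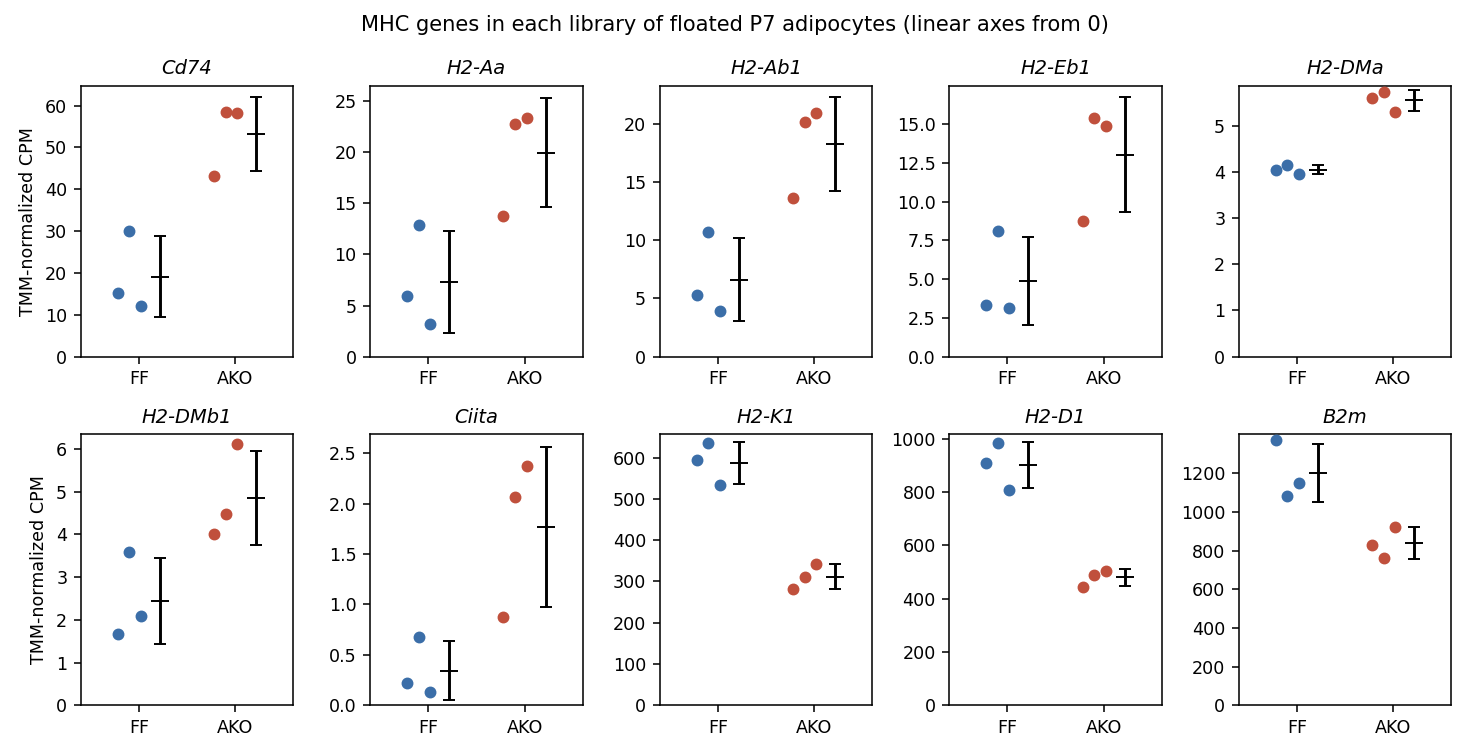
TMM-normalized CPM (vertical axes, linear from 0) of the 10 genes in the 3 L1L2-FF (blue) and 3 L1L2-AKO (red) libraries, replicates 1 to 3 from left to right, with the mean and SD in black. In the 7 class II panels every red point lies above every blue point, and in the 3 class I panels (*H2-K1*, *H2-D1*, *B2m*) every red point lies below.

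Each library was left out in turn. *H2-K1* and *H2-D1* passed in all 6 fits that left out a library, with log2 fold changes between -0.99 and -0.84. None of the 4 class II calls passed in all 6. *Cd74* lost its call without L1L2-FF replicate 1 (adjusted p = 0.078), L1L2-AKO replicate 2 (0.0664) or L1L2-AKO replicate 3 (0.0633), and *H2-Ab1*, *H2-Eb1* and *Ciita* lost theirs without any one of L1L2-FF replicates 1 and 3 and L1L2-AKO replicates 2 and 3, with adjusted p-values up to 0.152. In these fits the log2 fold change was 1.33, 1.41 and 1.42 for *Cd74* and between 1.19 and 1.39 for *H2-Ab1*, between 1.18 and 1.32 for *H2-Eb1* and between 1.95 and 2.22 for *Ciita*. Calls over all genes also numbered fewer there, 1290, 1281 and 1374 without L1L2-FF replicate 1, L1L2-AKO replicate 2 and L1L2-AKO replicate 3, and 2283 without L1L2-FF replicate 3, against 2580. L1L2-FF replicate 2 acted the other way. Without it 6 of the 7 class II genes (all but *H2-DMa*) and all 3 class I genes passed, and the log2 fold change was 1.96 for *Cd74*, 2.13 for *H2-Aa* and 3.29 for *Ciita*. The direction of each of the 10 genes was the same in every fit that gave a value.

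**Figure D2:**
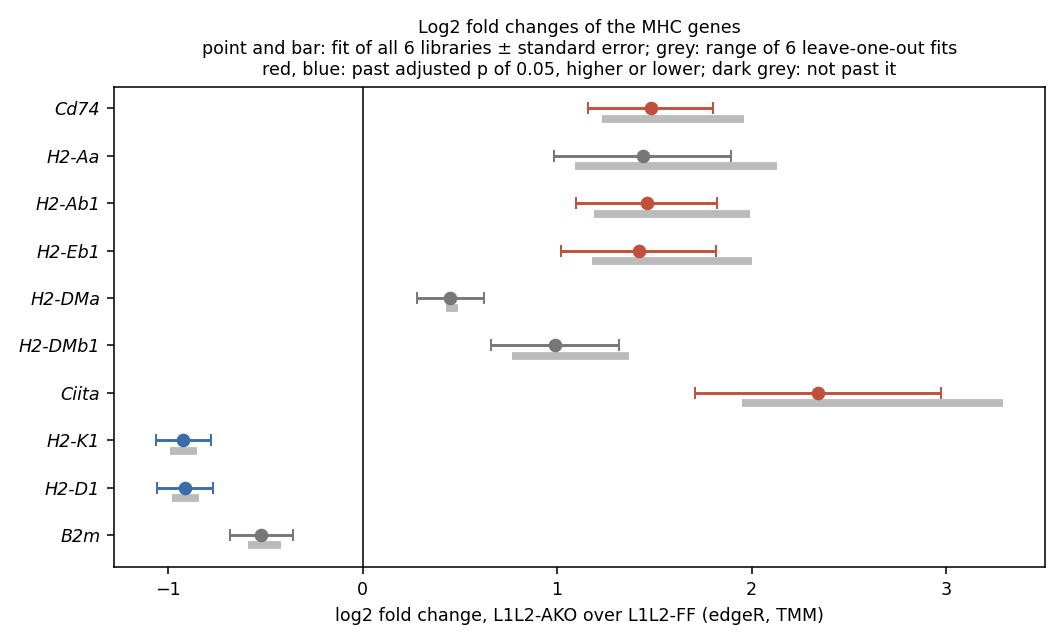
Log2 fold change of L1L2-AKO over L1L2-FF (horizontal axis) for each of the 10 genes, with its standard error, coloured where it passed an adjusted p of 0.05 (red higher, blue lower, dark grey not passed); light grey bars span the 6 fits that left out a library. *Ciita* has the widest span, 1.95 to 3.29, and *H2-DMa* the narrowest, 0.43 to 0.49.

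Levels of different genes were compared per kilobase of exon. In L1L2-FF the order was *B2m* (1394 ± 176 CPM per kb, SD, n = 3), *H2-D1* (349 ± 34.0), *H2-K1* (between 182 and 216 in the 3 libraries), *Cd74* (11.4 ± 5.73), *H2-Ab1* (2.58 ± 1.40), *H2-Eb1* (2.50 ± 1.45), *H2-Aa* (1.93 ± 1.31), *H2-DMb1* (1.46 ± 0.601), *H2-DMa* (1.18 ± 0.026) and *Ciita* (0.0361 ± 0.0309). The order was the same in L1L2-AKO, from 973 ± 96.2 CPM per kb for *B2m* through 31.7 ± 5.24 for *Cd74* to 0.186 ± 0.0829 for *Ciita*. In L1L2-FF each gene from *H2-Ab1* down to *H2-DMa* overlapped in range with its neighbours among them, so neighbours could not be ordered by range. The same held in L1L2-AKO from *H2-Ab1* down to *H2-DMb1*. All other neighbours were separate. Genes further apart in these runs could be separate, as *H2-Ab1* (1.52 to 4.16) and *H2-DMa* (1.15 to 1.20) were in L1L2-FF. Ranges over libraries do not compare genes within a library. The 3 class I genes together made up 0.269% of the normalized counts in L1L2-FF and 0.163% in L1L2-AKO, and the 7 class II genes 0.00448% and 0.0117%. The summed class I level was 80.4, 38.5 and 87.5 times the summed class II level in L1L2-FF and 17.3, 12.1 and 13.5 times in L1L2-AKO, so that the ratio was lower in every L1L2-AKO library although the class I genes remained the more abundant.

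Within a library some genes of a class stood in nearly fixed proportions. *H2-D1* was between 1.51 and 1.55 times *H2-K1* by CPM in L1L2-FF and between 1.48 and 1.58 times in L1L2-AKO. For each *Cd74* count there were 0.342 ± 0.0158 counts of *H2-Ab1* in L1L2-FF and 0.340 ± 0.0227 in L1L2-AKO (SD, n = 3), and between 0.219 and 0.270 of *H2-Eb1* in L1L2-FF and between 0.203 and 0.264 in L1L2-AKO. *H2-Aa* varied more, between 0.268 and 0.4275 of *Cd74* in L1L2-FF and between 0.3196 and 0.401 in L1L2-AKO. *Ciita* stood at 0.0160 ± 0.00606 of *Cd74* in L1L2-FF and at 0.0321 ± 0.0106 in L1L2-AKO, with overlap. *H2-DMa* did not keep its proportion: it stood at 0.244 ± 0.0977 of *Cd74* in L1L2-FF and at 0.106 ± 0.0208 in L1L2-AKO, without overlap. These ratios were chosen after the values were seen and carry no test.

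The genes whose levels followed *Cd74* most closely over the 6 libraries were sought among 10060 genes whose log2 CPM averaged 3 or more. Among the closest were *Ptprc*, which encodes the pan-leukocyte surface protein CD45 (r = 0.996), *Ppip5k2* and *Cmah* (r = 0.995 for the last). For *H2-K1* they were *Map1lc3a*, an autophagy gene (r = 0.998), *Per3* and *Tef*, both genes of the circadian clock's output, *Sox6* and *Cfd*, the adipocyte protease adipsin (r = 0.997 for the last). The libraries form a group for each genotype, so such values mostly reflect the difference between the genotypes and are given as a description. *Ptprc* itself was at 18.1, 31.6 and 12.3 CPM in L1L2-FF and at 45.8, 62.3 and 56.4 CPM in L1L2-AKO, with L1L2-FF replicate 2 again the highest control.

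Because class II genes belong to particular leukocytes, marker genes of the cells that the floated fraction could hold were examined beside them. Of 12 macrophage markers 10 rose and 0 fell, with a median log2 fold change of 1.48. *Mrc1*, the mannose receptor, went from 71.4 ± 23.6 to 256 ± 28.0 CPM (SD, n = 3), *Lyz2*, lysozyme, from 71.2 ± 25.2 to 150.4 ± 7.82 CPM, and *Csf1r*, the receptor for the macrophage growth factor, from 64.6 ± 26.4 to 152 ± 9.61 CPM. The summed level of the 12 markers was 286 to 546 CPM in L1L2-FF and 999.7 to 1115 CPM in L1L2-AKO, none was at 0 in any library, and L1L2-FF replicate 2 had the highest sum of its genotype. *Mertk* and *Lyve1* did not pass. The part of the macrophage markers in the class II result was not tested beyond the ratios given next.

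Set against the mean log2 level of the macrophage markers in the same library, the difference between the genotypes in *Cd74* and the class II chains was smaller. The relative log2 level of *Cd74* was -0.69, -0.15 and -0.62 in L1L2-FF and -0.50, -0.19 and -0.06 in L1L2-AKO, which overlap. The means of *Cd74*, *H2-Aa*, *H2-Ab1* and *H2-Eb1* differed by 0.18 to 0.29 between the genotypes, within ranges that overlapped for each gene. *Ciita* was higher by 1.25 in the mean, from -6.52 ± 0.80 to -5.27 ± 0.75 (SD, n = 3), and its ranges also overlapped. *H2-DMa* was lower relative to the markers in every L1L2-AKO library, at -2.61 ± 0.40 against -3.50 ± 0.051. On this scale the class I genes were lower in every L1L2-AKO library. The differences of the means were -2.26 for *H2-K1*, -2.25 for *H2-D1* and -1.86 for *B2m*. As the markers rose, genes at lower levels must lie lower on this scale, so it adds nothing to their fall. Divided by the CPM of *Adipoq*, which itself fell, the class I genes were higher in every L1L2-AKO library. The mean ratio went from 0.282 to 0.359 for *H2-K1*, from 0.431 to 0.557 for *H2-D1* and from 0.580 to 0.976 for *B2m*. Of the 10 mature adipocyte genes described below, only *Slc2a4* (log2 fold change -1.81) fell further than *Adipoq* (-1.26). *H2-K1* (-0.92) and *H2-D1* (-0.91) fell more than the median of that list (-0.58). The ratio therefore rests on the choice of *Adipoq*, carries no test and does not give a level per adipocyte.

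**Figure D3:**
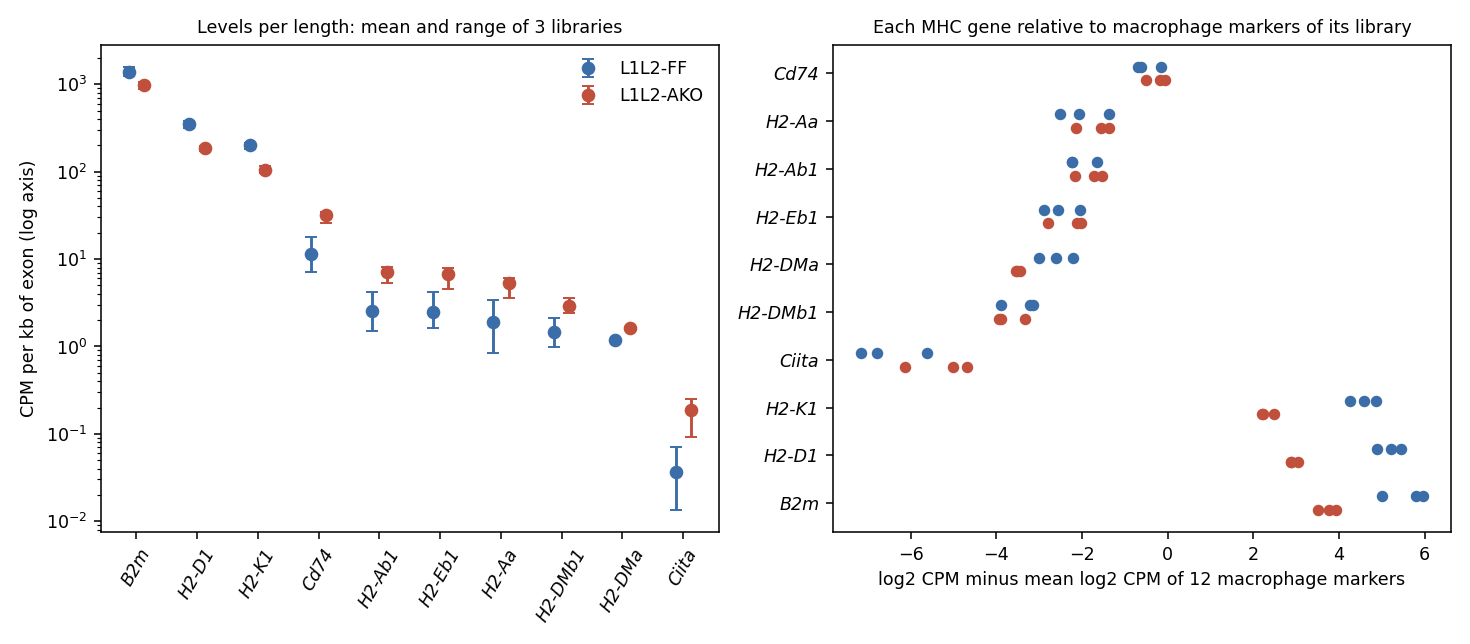
Left, CPM per kb of exon (log axis) of the 10 genes, as mean and range of the 3 libraries of each genotype. Right, log2 CPM of each gene minus the mean log2 CPM of the 12 macrophage markers of its library (1 point per library, L1L2-FF blue, L1L2-AKO red). The genotypes overlap for *Cd74*, *H2-Aa*, *H2-Ab1*, *H2-Eb1*, *H2-DMb1* and *Ciita*, whereas *H2-DMa* and the 3 class I genes lie lower in every L1L2-AKO library.

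Markers of other leukocytes were mostly at low counts. None of 10 dendritic cell markers passed, with a median log2 fold change of 0.78. Their summed level was 35.3 to 59.0 CPM in L1L2-FF and 51.5 to 65.1 CPM in L1L2-AKO and was carried by *Zbtb46* (28.4 ± 5.79 and 25.3 ± 5.94 CPM), which endothelial cells express too, and *Clec10a* (11.4 ± 5.74 and 23.6 ± 2.88 CPM), which macrophages express too. *Clec9a* was at 3.63 ± 0.425 and 2.93 ± 1.03 CPM, *Flt3* was at 0 in L1L2-FF replicate 3 and *Cd209a* at 0 in L1L2-FF replicate 1. At these low counts the log2 fold changes were 1.53 for *Flt3* and 1.69 for *Cd209a*. *Zbtb46* (-0.17), *Clec9a* (-0.31) and *Xcr1* (-0.78) went the other way. In 3 of the 10 markers all L1L2-AKO libraries lay above all L1L2-FF libraries, against 18.0% of all tested genes, and in 0 all lay below. None of 8 B cell markers passed (median 0.34). Their sum was 50.8 to 277 CPM in L1L2-FF and 59.3 to 78.4 CPM in L1L2-AKO, set by *Ighm*, which ranged from 31.3 to 269 CPM within L1L2-FF. *Cd79a* (2.75 ± 1.40 and 3.26 ± 1.15 CPM) and *Igkc* (2.20 ± 1.13 and 2.98 ± 0.912 CPM) were low. Of 9 T and NK cell markers 8 were tested and none passed (median 1.13), with sums of 4.74 to 15.7 CPM in L1L2-FF and 10.9 to 24.1 CPM in L1L2-AKO, and with *Cd4* (2.48 ± 1.16 and 5.92 ± 2.04 CPM), *Cd3g* and *Cd8a* the most abundant. *Ncr1* was at 0 in 3 libraries. Among 7 monocyte and neutrophil markers (median 0.41) *Ccr2*, a chemokine receptor of monocytes, rose (4.38 ± 2.53 to 12.9 ± 2.22 CPM, adjusted p = 0.0273), while *S100a9* (10.3 ± 5.01 and 7.09 ± 1.97 CPM) and *Plac8* (3.66 ± 0.856 and 5.81 ± 0.958 CPM) did not pass.

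Markers were also read for other cells of the tissue, which carry class I but rarely class II. None of 8 endothelial markers passed, with a median log2 fold change of -0.45. Their sums were 1897 to 2545 CPM in L1L2-FF and 1113 to 2415 CPM in L1L2-AKO, where replicate 3 was the lowest. *Cdh5* was at 750.3 ± 115 and 613 ± 226 CPM, *Pecam1* at 519 ± 84.8 and 376 ± 126 CPM, and *Kdr* at 385 ± 38.2 and 394 ± 170 CPM. Of 8 adipose progenitor markers 2 fell (*Pi16* and *Cd55*), with a median of -0.46. The most abundant, *Dcn* (216 ± 65.2 and 132 ± 11.3 CPM), *Cd34* and *Lum*, did not pass. Of 10 mature adipocyte genes 3 fell (*Adipoq*, *Pparg* and *Slc2a4*), with a median of -0.58. *Adipoq*, which encodes adiponectin, fell by 1.26 on the log2 scale (SE 0.213, adjusted p = 0.0064), from 2107 ± 349 to 877 ± 171 CPM. The most abundant genes of the list, *Lpl* (16840 ± 3057 CPM in L1L2-AKO) and *Fabp4* (6605 ± 346 CPM in L1L2-AKO), did not pass. The part of these marker genes in the class I result was not tested.

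The rest of the antigen presentation machinery was described by 71 genes in 8 lists, of which 65 were tested, 12 rose and 7 fell. The lists were compared with the shares over all tested genes given above.

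Most genes of the proteases and the reductase that prepare peptides and strip Cd74 in the endosome rose. Of 9 genes of class II peptide supply, 6 rose and 0 fell, with a median log2 fold change of 0.89. *Ifi30*, the thiol reductase GILT of antigen-processing endosomes, was at 16.8, 15.8 and 16.1 CPM in L1L2-FF and at 40.7, 38.2 and 38.6 CPM in L1L2-AKO (log2 fold change 1.27, SE 0.105, adjusted p = 0.000404). *Ctss*, cathepsin S, which cleaves Cd74 in professional antigen-presenting cells, was at 10.6, 18.5 and 11.2 CPM in L1L2-FF and at 39.2, 42.5 and 40.7 CPM in L1L2-AKO (log2 fold change 1.60, adjusted p = 0.00243). Both sets of libraries stood well apart, and L1L2-FF replicate 2 was the highest control for *Ctss* but not for *Ifi30*. *Lgmn*, legumain, rose by 1.09 and *Ctsz*, cathepsin Z, by 0.59 on the log2 scale. *Ctsl* and *Marchf1*, a ubiquitin ligase that removes class II from the surface, also rose (0.89 and 1.62). The most abundant gene of the list, *Ctsb*, was at 1592 ± 328 and 1454 ± 223 CPM and did not pass, and neither did *Ctsd* or *Marchf8*. *Ifi30*, *Ctss* and *Lgmn* passed in every fit without a library, and *Ctsz* lost its call without L1L2-FF replicate 1, as did *Ctsl* and *Marchf1*, which also lost it without L1L2-AKO replicate 2 or 3.

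The DNA-binding factors that recruit Ciita and the remaining class II genes did not rise. Of 11 such genes 9 were tested, 0 rose and 1 fell, with a median log2 fold change of -0.08. *Rfxank*, a subunit of the RFX complex, went from 14.5 ± 0.932 to 9.11 ± 1.48 CPM (SD, n = 3) and fell by 0.67 on the log2 scale (SE 0.163, adjusted p = 0.0274), a call lost without any one of L1L2-FF replicates 1 and 3 and L1L2-AKO replicates 2 and 3. *Rfx5*, a second subunit, was at 11.7 ± 1.22 and 9.37 ± 1.48 CPM, *Nfyb*, a subunit of NF-Y, at 25.3 ± 3.24 and 20.4 ± 2.73 CPM, and *Creb1*, the most abundant, at 56.3 ± 2.63 and 56.8 ± 6.54 CPM. None of these passed. *H2-DMb2* had a log2 fold change of 0.75 (SE 0.485, adjusted p = 0.349), and *H2-Eb2* and *H2-Oa* were too low to be tested.

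Other class I and class I-like heavy chains were, like *H2-K1* and *H2-D1*, never higher past the threshold. Of 16 genes 14 were tested, 0 rose and 3 fell, with a median log2 fold change of -0.48. *H2-T22*, a nonclassical heavy chain, was at 81.8, 81.9 and 75.8 CPM in L1L2-FF and at 43.2, 45.0 and 48.4 CPM in L1L2-AKO and fell by 0.81 on the log2 scale (SE 0.102, adjusted p = 0.00204). *H2-Q7*, of the Qa-2 family, fell by 1.04 (10.4 ± 1.65 to 5.08 ± 0.761 CPM, adjusted p = 0.0102) and *Mr1*, which presents metabolites to MAIT cells, by 0.69 (20.5 ± 0.639 to 12.7 ± 2.60 CPM, adjusted p = 0.026). *H2-T22* shares 53.5% and *H2-Q7* 26.5% of their 50-base stretches with other genes, so their counts are uncertain. *H2-Q6* (log2 fold change -1.25, adjusted p = 0.069) and the most abundant, *Fcgrt*, the neonatal Fc receptor (-0.41, adjusted p = 0.0862), did not pass. *H2-T22* passed in every fit without a library, while *H2-Q7* lost its call without L1L2-AKO replicate 2 (adjusted p = 0.0502) and *Mr1* without any one of L1L2-FF replicate 1 and L1L2-AKO replicates 1 and 2. *H2-Q2* and *H2-M2* were too low to be tested.

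The genes that load peptides onto class I had few calls, in both directions. Of 8 genes 2 rose and 1 fell, against 9.28% and 7.18% of all tested genes, with a median log2 fold change of 0.16. *Pdia3*, the disulfide isomerase ERp57, rose from 418 ± 53.3 to 703 ± 29.4 CPM (log2 fold change 0.75, adjusted p = 0.0116), and *Tapbp*, tapasin, from 182 ± 22.6 to 316 ± 81.9 CPM (0.79, adjusted p = 0.0326). *Tap2*, a subunit of the peptide transporter, fell from 31.5 ± 1.77 to 22.7 ± 1.56 CPM (fell by 0.47 on the log2 scale, adjusted p = 0.0264). *Calr*, the chaperone calreticulin and the most abundant of the list, was at 629 ± 141 and 969 ± 54.5 CPM and did not pass (adjusted p = 0.0576). *Pdia3*, *Calr* and *Canx* serve the folding of secreted proteins in general and are not particular to class I. None of the 3 calls held in every fit without a library: *Pdia3* lost it without L1L2-FF replicate 1, *Tap2* without any one of L1L2-FF replicate 1 and the L1L2-AKO replicates, and *Tapbp* without any one library but L1L2-AKO replicate 1.

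The proteasome genes did not pass in either direction. The immunoproteasome, which interferon gamma induces and which cuts peptides suited to class I, had 0 of 5 genes past the threshold and a median log2 fold change of -0.27. *Psme1* was at 114 ± 15.2 and 103 ± 1.84 CPM, *Psme2* at 87.2 ± 29.6 and 69.5 ± 5.21 CPM, *Psmb10* at 27.3 ± 2.61 and 22.7 ± 1.97 CPM, and *Psmb9* at 9.85 ± 0.555 and 8.08 ± 0.351 CPM. The 4 counterparts of the standard proteasome, *Psmb5*, *Psmb6*, *Psmb7* and *Psme3*, had a median of -0.05, with *Psmb7* at 82.0 to 140.2 CPM in L1L2-FF and 96.6 to 104 CPM in L1L2-AKO.

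Interferon gamma induces both classes, through JAK kinases, IRF1, Ciita and the class I coactivator Nlrc5. Of 11 genes of this axis 10 were tested, 3 rose and 1 fell. *Irf1*, a transcription factor that binds interferon-stimulated elements, was at 219, 281 and 139 CPM in L1L2-FF and at 78.1, 76.6 and 54.9 CPM in L1L2-AKO. The groups did not overlap, and *Irf1* fell by 1.61 on the log2 scale (SE 0.261, adjusted p = 0.00557). *Ifngr1*, a chain of the receptor and the most abundant gene of the list, was at 134, 176 and 118 CPM in L1L2-FF and at 257, 342 and 415 CPM in L1L2-AKO and rose by 1.25 (SE 0.215, adjusted p = 0.00722). *Ifngr2* (log2 fold change 0.41, adjusted p = 0.0357) and *Jak1* (0.43, adjusted p = 0.034) also rose, but *Ifngr2* lost its call with library size alone and with no filter on low counts, *Jak1* lost it with no such filter, *Ifngr2* kept its call in 2 and *Jak1* in 1 of the 6 fits without a library, while *Irf1* and *Ifngr1* kept theirs in all 6. *Ifng* itself was at 0 in every L1L2-FF library and at no more than 0.127 CPM in L1L2-AKO and was not tested. *Nlrc5* did not pass.

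Of 7 genes of the ligands that a T cell reads beside the MHC, 6 were tested, 1 rose and 1 fell, with a median log2 fold change of 0.84. So few calls are near the 9.28% and 7.18% of all tested genes that rose and fell. In 4 of the 7 genes all L1L2-AKO libraries lay above all L1L2-FF libraries and in 1 all lay below. Over all tested genes these shares were 18.0% and 18.4%. *Cd274*, which encodes the checkpoint ligand PD-L1 and was the most abundant of the list, was at 27.8, 22.2 and 34.0 CPM in L1L2-FF and at 12.3, 9.51 and 9.25 CPM in L1L2-AKO. Its groups did not overlap, and *Cd274* fell by 1.43 on the log2 scale (SE 0.195, adjusted p = 0.00268), in every fit without a library too. *Cd40* rose by 0.99 (means of 1.77 and 3.52 CPM, adjusted p = 0.028), a call kept in 1 of those 6 fits. *Cd83* (log2 fold change 0.77, adjusted p = 0.0611) and *Cd86* (0.92, adjusted p = 0.0616) did not pass.

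**Figure D4:**
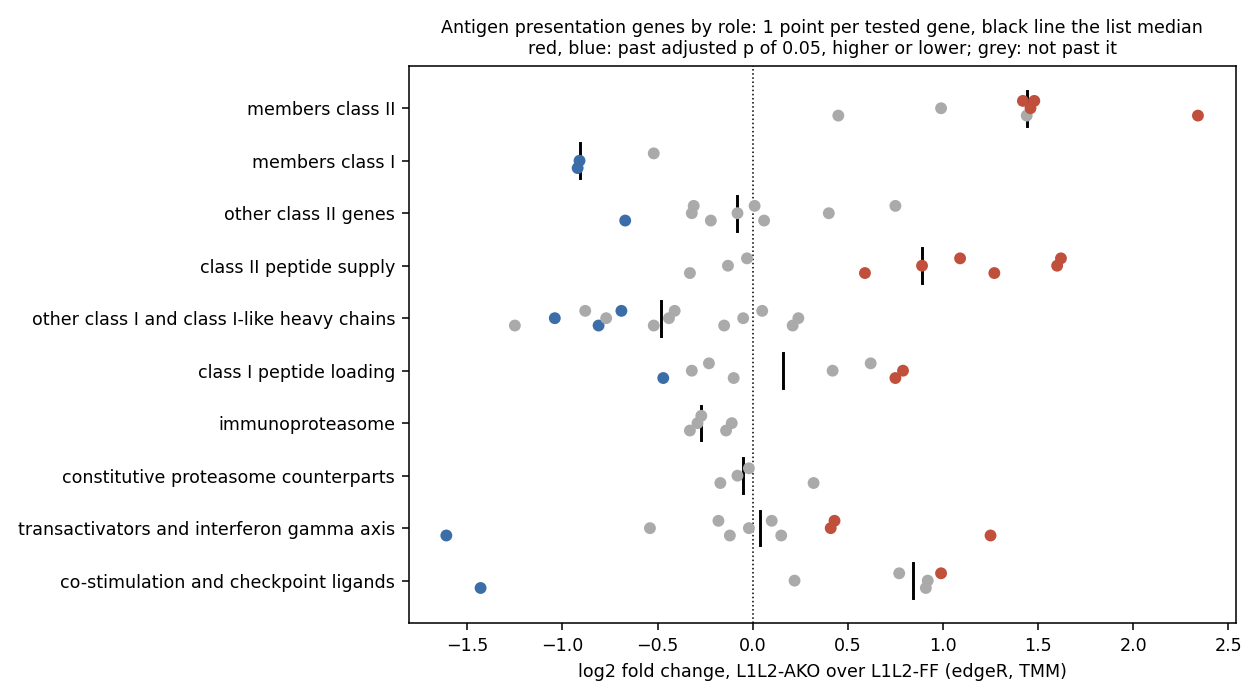
Log2 fold change of L1L2-AKO over L1L2-FF (horizontal axis) for each tested gene of the 10 presentation genes (top rows) and of 8 further lists, with 1 point per gene and the list median as a black line; red and blue points passed an adjusted p of 0.05. The medians run from 1.44 for the class II members and 0.89 for class II peptide supply to -0.48 for other class I-like chains and -0.91 for the class I members.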

How the data were processed

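Counts per gene were analysed for 6 libraries, 3 per genotype. The authors aligned paired-end reads to mm10 with HISAT2 2.1.0 and used StringTie 1.3.5 (versions from the submitters' processing notes), and the deposited values are raw read counts per gene symbol, without normalization. The annotation, counting program and strand setting are not given in the sources used here, so reads of overlapping genes cannot be told apart. The floxed lines came from mixed stocks, and MHC genes vary between strains, whereas mm10 is the genome of a single strain. This was not tested.

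The whole table was fitted in R 4.3.3 with edgeR 4.0.16 (filterByExpr with minimum count 10 and minimum total 15, TMM, quasi-likelihood test, two-sided, Benjamini-Hochberg over 15674 tested genes, threshold 0.05). The standard error of a log2 fold change is its size divided by the square root of F. CPM are TMM-normalized, means carry the SD over 3 libraries, and CPM per kb use exon lengths of GENCODE M21. Alternatives used DESeq2 1.42.0, limma 3.58.1, other scalings and filters, replicate number as a block and each library left out. Replicates of a genotype differed by more than sampling noise, and nothing states whether mice were shared between pools, so p-values measure the spread between these pools.

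The 10 genes and all lists were chosen with earlier results of these data known. Genes named were the 10, the 4 smallest p-values and the most abundant gene of each pathway list, the 3 most abundant of each marker list, the 5 genes most like *Cd74* and *H2-K1*, *Lats1* and *Lats2*; any other gene named was chosen after its values were seen. Some genes drawn by this rule or held in the lists are not reported here. Python 3.11.15 with pandas 2.3.3 made the tables, and matplotlib 3.10.9 drew the figures.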

Additional observations from a re-analysis of the deposited data

How the results depend on the processing

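Of 139 values of single genes recomputed under the alternatives, 111 kept their side of the threshold, 17 lost a call, 11 gained one and 0 changed direction. The count of the 10 genes past the threshold, 6 in the fit of all libraries, was 5 to 9 under other scalings, filters and tests, and between 2 and 9 when each library was left out in turn; the higher calls ranged from 0 to 6 and the lower calls from 2 to 3. It was 2 without L1L2-FF replicate 1 or L1L2-AKO replicate 2 or 3, and 3 without L1L2-FF replicate 3. Genes of the pathway lists past the threshold numbered 19, and between 8 and 22 without a library (8 when L1L2-FF replicate 1 was left out, and 9 and 11 for L1L2-AKO replicates 2 and 3). Marker genes past it numbered 16, and between 8 and 29 without a library (8 and 29 when L1L2-FF replicate 1 or 2 was left out, and 9 for L1L2-AKO replicate 2). These fits have fewer samples, and calls over all genes ranged from 1281 to 2845 in them, against 2580. Under DESeq2's Wald test 9 of the 10 genes passed, all but *H2-DMa*, and 3374 of all genes. *Ciita* gave no value where at least 10 counts were required in every library. Same-numbered libraries did not deviate together in every pair (correlations of 0.188, 0.255 and -0.0544). These values cannot settle whether the numbers pair the samples. With the replicate block, which added *H2-Aa* and took the calls of *Tap2*, *Ifngr2* and *Jak1*, 7 of the 10 genes passed, 18 pathway genes and 21 marker genes, and 2514 genes in all against 2580.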
